A study of Mus musculus with 31 samples.

Results

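The closed CpG-rich coding promoters of NIH-3T3 cells are the starts of protein-coding genes that have the base composition of a CpG island and yet no ATAC-seq peak. NIH-3T3 is an established line of mouse fibroblasts, and in ATAC-seq the Tn5 transposase inserts sequencing adapters where chromatin leaves DNA exposed, so that a peak marks an accessible region. Members were selected on these peaks and on sequence. A gene on chromosomes 1 to 19 was called CpG-rich when the 500 bp to either side of its start had a GC content of at least 55% and a CpG observed/expected ratio of at least 0.75, that is, the number of CG dinucleotides divided by the number that the C and G content would give. It was called closed when no transcription start site (TSS) of any of its annotated transcripts had a peak within 1 kb. Of 20807 protein-coding genes, 5341 were CpG-rich, and 704 of these were closed (13.2% of the CpG-rich genes, Wilson 95% interval 12.3 to 14.1%). Of all coding genes on these chromosomes, 9363 (45%) were closed by the same distance.

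The peaks come from 1 library of the parental cell line, made from 50000 cells with 0.5 µM Tn5 and 12 cycles of PCR. The other 30 samples of the series, in which 1 of 13 transcription factors (TFs) was expressed under the control of doxycycline, or the cells carried only the rtTA3G transactivator, were not analysed here. The labels of the parental sample list neither a construct nor doxycycline, while the methods describe doxycycline treatment for NIH-3T3 ATAC-seq in general, so whether these cells received the drug is not known. With 1 library there is no replicate error, so every interval given here covers counting error over genes only, and genes are not independent replicates. The list holds 63456 peaks with at least 10 fragments at the summit (median 29, against an expected background of 2.81), and a gene called closed is one with no peak of the deposited list within 1 kb, which is not the same as a complete absence of cuts. If peaks were removed after calling, as is described for ChIP-seq, a closed gene may have lost one. The total number of reads is not in the peak list. As a check of the label, all 10 fibroblast markers examined (among them Col1a1, Pdgfrb and Twist1) had a peak within 1 kb of a TSS, while none of the 5 neuronal, 5 pluripotency and 5 germ cell markers had one. Peaks were also found at 3 of 4 endothelial (Tek, Cdh5, Pecam1), 2 of 5 epithelial (Krt14, Krt8), 1 of 5 blood (Spi1) and 1 of 4 muscle markers (Ckm).

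Most mammalian CpG dinucleotides are methylated and have been lost over evolution by deamination, and CpG islands are the stretches that escaped this. They cover the starts of nearly all housekeeping genes and of many genes that control development. At the second kind, Polycomb complexes are known to keep chromatin compact in cell types that do not use the gene. Neither DNA methylation nor Polycomb marks were measured in these data.

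To show what such a start looks like, the 150 bases upstream of the gene start are printed for the member with the highest CpG observed/expected ratio in each of 7 gene classes, and for an open ribosomal and an open mitochondrial gene as a comparison. Stretches overlapping an annotated UTR were passed over. The sequences are from RefSeq's copy of GRCm38 (mm10), are written 5′ to 3′ on the strand of the gene, and have each CG in capitals.
Barhl2: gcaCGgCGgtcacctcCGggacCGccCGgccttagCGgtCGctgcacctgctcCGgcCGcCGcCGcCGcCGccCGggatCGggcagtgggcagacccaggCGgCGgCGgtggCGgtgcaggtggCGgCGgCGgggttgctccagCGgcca
Kcnmb4: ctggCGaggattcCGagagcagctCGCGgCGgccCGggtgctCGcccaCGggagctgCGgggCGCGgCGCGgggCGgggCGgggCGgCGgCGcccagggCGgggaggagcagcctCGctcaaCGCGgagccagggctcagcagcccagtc
Bmp2: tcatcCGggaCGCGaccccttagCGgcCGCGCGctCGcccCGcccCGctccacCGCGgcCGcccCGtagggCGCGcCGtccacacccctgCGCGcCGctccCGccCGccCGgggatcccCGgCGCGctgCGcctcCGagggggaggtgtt
Gpr27: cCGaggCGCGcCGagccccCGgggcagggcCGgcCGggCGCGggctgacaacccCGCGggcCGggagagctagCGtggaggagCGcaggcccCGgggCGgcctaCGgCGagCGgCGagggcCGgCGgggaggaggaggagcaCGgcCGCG
Klf14: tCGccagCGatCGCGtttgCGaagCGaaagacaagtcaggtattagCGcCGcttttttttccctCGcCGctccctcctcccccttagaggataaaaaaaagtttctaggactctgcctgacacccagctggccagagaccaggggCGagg
Tcf15: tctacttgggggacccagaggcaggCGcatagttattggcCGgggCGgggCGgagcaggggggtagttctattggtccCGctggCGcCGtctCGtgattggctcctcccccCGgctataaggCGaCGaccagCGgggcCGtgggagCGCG
Zfp618: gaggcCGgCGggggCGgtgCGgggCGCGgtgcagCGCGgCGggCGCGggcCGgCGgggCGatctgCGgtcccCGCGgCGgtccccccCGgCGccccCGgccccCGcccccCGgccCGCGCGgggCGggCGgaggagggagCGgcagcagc
Rplp1 (open): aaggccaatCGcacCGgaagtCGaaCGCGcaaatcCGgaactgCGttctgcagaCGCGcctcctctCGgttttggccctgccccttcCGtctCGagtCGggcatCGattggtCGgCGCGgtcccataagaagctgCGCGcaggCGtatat
Mrps30 (open): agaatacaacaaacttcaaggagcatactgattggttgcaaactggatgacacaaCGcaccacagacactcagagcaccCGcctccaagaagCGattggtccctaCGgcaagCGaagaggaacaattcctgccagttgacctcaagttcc

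The homeobox gene Barhl2, a regulator of neural development, lies on the minus strand, and the stretch shown (chr5:106458167-106458316) holds 23 CpGs. Its nearest peak was 116029 bp away, at the promoter of another gene. Kcnmb4, a regulatory subunit of large-conductance potassium channels (minus strand, chr10:116473879-116474028), has 22 CpGs in the stretch and was 35431 bp from a peak. The growth factor gene Bmp2 (plus strand, chr2:133552009-133552158) has 28 CpGs and was 62649 bp from a peak of 14 fragments between genes. The receptor gene Gpr27 (plus strand, chr6:99692529-99692678) has 25 CpGs, a GC content of 79.3% over its 1-kb window, and a peak 21626 bp away. The zinc finger gene Klf14 (minus strand, chr6:30959079-30959228) has only 11 CpGs upstream of its start although its 1-kb window has a ratio of 1.11. Tcf15, a bHLH factor of the paraxial mesoderm (plus strand, chr2:152143411-152143560), has 15 CpGs and was 31293 bp from a peak. Zfp618 (plus strand, chr4:62965423-62965572) has 29 CpGs, the highest number of the 9, and one of its TSSs was 1258 bp from a peak. In the same stretch, the open genes Rplp1 (minus strand, chr9:61914543-61914692) and Mrps30 (minus strand, chr13:118387253-118387402) have 20 and 5 CpGs. The 7 closed stretches thus held between 11 and 29 CpGs, and the open ones lay within or below that range.

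Over all genes, closed and open CpG-rich starts were alike in CpG number and differed modestly in composition. The median number of CpGs per window was 91 in the closed and 86 in the open genes, the median GC content 66.5% and 63.7%, and the median CpG observed/expected ratio 0.836 and 0.858. The share of closed genes went up with GC content, from 94 of 1281 (7.34%) at 55 to 60% GC over 11.2% and 15.8% to 191 of 904 (21.1%, interval 18.6 to 23.9%) at 70% or more. It went down with the CpG observed/expected ratio, from 17.4% of the genes at 0.75 to 0.8 to 9.13% of those at 0.95 or more. GC content and the ratio are both part of the rule that chose the members, so these shares describe the CpG-rich genes and were not tested. Whether very GC-rich fragments were recovered less well in the library was not tested.

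**Figure D1:**
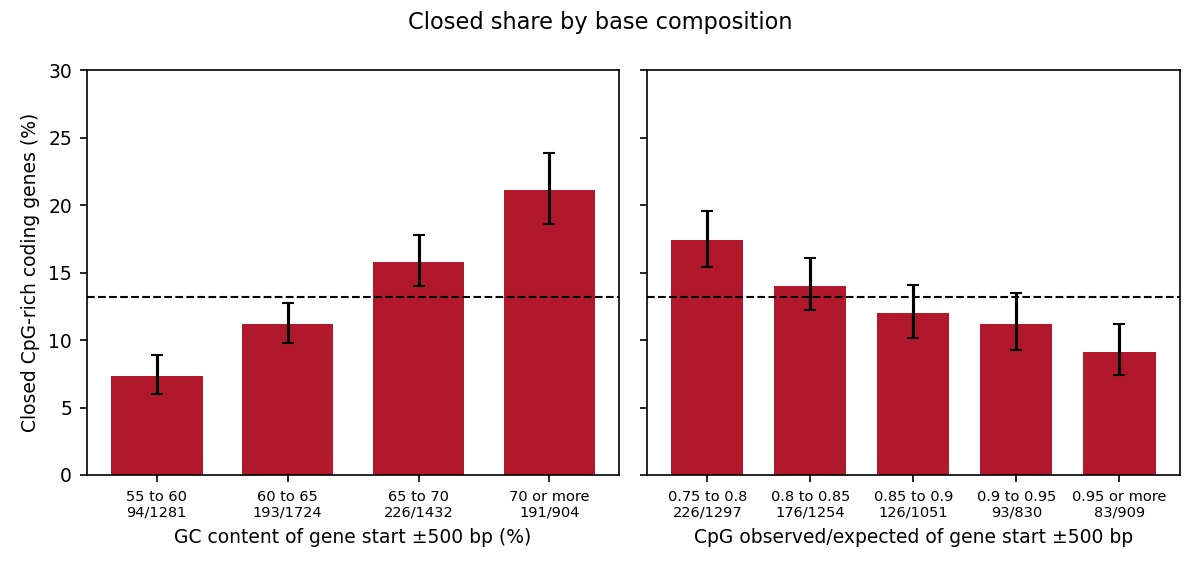
Share of CpG-rich coding genes that were closed (y axis, %) by GC content (left) and by CpG observed/expected ratio (right) of the 1-kb window at the gene start. Bars are shares, error bars Wilson 95% intervals, the numbers under each bar the closed genes and all CpG-rich genes, and the dashed line the 13.2% of all CpG-rich genes. The share is lowest, 7.34%, at 55 to 60% GC and highest, 21.1%, at 70% or more.

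At the thresholds, the closed genes nearest to a peak were Aldh5a1 (1014 bp), Phf2 (1020 bp), Slc6a4 (1026 bp), Chd7 (1027 bp) and Adcy5 (1035 bp), and the genes that just missed being closed were Tesc (981 bp), Itga9 (967 bp) and Slc5a5 (966 bp). Tcte3 and Tmod1 (both 55% GC) and Hoxc12 (55.3%) were just GC-rich enough, while Trmt9b (54.9%), Colgalt2 and Fam84a (both 54.7%) were closed but just outside. For the CpG observed/expected ratio, Sh2d5, Frmd4b and Fam174b (each 0.751) were just inside, and Dchs2, Rprml and Chrm3 (each 0.749) just outside. These values describe the edges of the rule and were not compared.

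Genes were next sorted into classes by symbol. The 6 TF classes, which hold many regulators of cell lineages, made up 87 of the 704 members (12.4%). TFs outside these classes were not counted here. In the 6 TF classes together, 87 of 152 CpG-rich genes were closed (57.2%, interval 49.3 to 64.8%), beside 13.2% of all CpG-rich genes. The closed share was 69.4% for homeobox genes (43 of 62), 7 of 10 for SOX genes, 70.6% for lineage bHLH genes (12 of 17), 41.7% for developmental zinc finger genes (15 of 36) and 34.8% for forkhead genes (8 of 23), and 2 of 4 T-box genes were closed. In the same 6 classes, genes that are not CpG-rich were closed in 206 of 292 cases (70.5%), so that these classes were often closed with or without a CpG-rich start. Among all coding genes that are not CpG-rich, 8659 of 15466 (56.0%) were closed.

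Homeobox genes encode TFs that bind DNA through a homeodomain and assign identity to body segments and cell types. The 43 closed ones included the Nkx genes Nkx1-1, Nkx2-4, Nkx6-1 and Nkx6-2, which pattern the nervous system, and all 4 CpG-rich Nkx genes were closed. Also closed were Lhx1, En2, Gbx2, Mnx1, Pou4f1 and Isl1, which specify brain regions or neurons, and Cdx1, which acts in the gut and the posterior body. Onecut1, a liver and pancreas regulator, was the homeobox member nearest to a peak (1904 bp, a peak inside the gene), and Otx2 and Isl1 were the farthest (198986 and 285094 bp). The 19 open homeobox genes held broadly expressed members such as Adnp, Cux1 and Pou2f1, the mesenchymal regulator Zeb1, and also Hlx, Irx1, Irx2, Irx5, Dlx2 and Tshz3. Of the 9 CpG-rich Hox genes, which mark position along the body axis, Hoxb7 (1932 bp), Hoxd13 (4504 bp), Hoxc11 (6853 bp), Hoxa13 (9602 bp), Hoxc12 (10638 bp) and Hoxd1 (32563 bp) were closed. Hoxa4, Hoxb9 and Hoxd9 had a peak within 1 kb of a TSS, so each of the 4 Hox clusters except Hoxc held both an open and a closed CpG-rich gene.

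In the SOX family, whose HMG domain bends DNA, the closed genes were Sox18 (3905 bp), Sox30 (5396 bp), Sox5 (8554 bp), Sox7 (11411 bp), Sox1 (21904 bp), Sox2 (84738 bp) and Sox11 (225571 bp). Sox1, Sox2 and Sox11 are known for neural progenitors, and Sox7 and Sox18 for blood vessels. Open were Sox9, Sox12 and Sox13. Sox5 stood apart from the others, since its closed starts lay in a gene body with 44 peaks, the most of any member, and its nearest peak was inside the gene.

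Lineage bHLH genes drive the differentiation of neurons, glia, blood and muscle. Closed were Bhlhe23 (2388 bp from a peak), Hes5, Tal1 (3512 bp), Olig1 (8508 bp), Sim2, Tcf24, Hey2, Olig2 (22232 bp), Neurog1, Tcf15, Neurog2 (60154 bp) and Sim1 (301565 bp). Open were Twist1 and Twist2, which are mesenchymal regulators, Npas2, and Hes1 and Hey1, whose relatives Hes5 and Hey2 were closed. The forkhead members were Foxl1 (1752 bp), Foxe3 (2119 bp), Foxf1 (15325 bp), Foxl2 (23183 bp), Foxp2 (25392 bp), Foxd1 (32040 bp), Foxi3 (34467 bp) and Foxd3 (58988 bp). Foxf1, Foxl1 and Foxd1 are known from mesenchyme or stroma. The 15 open forkhead genes included Foxc1, Foxc2 and Foxf2, which are known from mesenchyme too, the insulin-responsive Foxo1 and Foxo3, and Foxm1 of the cell cycle. Both closed T-box genes, Tbx21 of T helper cells and Tbx2, were less than 10 kb from a peak (8099 and 9079 bp), beside a median of 11628 bp over all members. The open T-box genes were Tbx3 and Mga. Among developmental zinc finger genes, Bcl11b, a T cell and neuron regulator, was nearest to a peak (4423 bp), and Insm2 (81153 bp) and Ikzf2 (230853 bp) were farthest. This class was split within families, since Klf14 and Klf15 were closed and 9 other Klf genes, among them Klf4 and Klf6, were open.

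Genes for signals between cells came next. Of 37 CpG-rich genes for developmental ligands and antagonists, 23 were closed (62.2%). These included Bmp2, Bmp6, Bmp7 and Bmp8b (4 of 5 BMP genes, the open one being Bmp1, which encodes a protease), Wnt2b, Wnt4, Wnt7a, Wnt9b and Wnt11 (5 of 7 Wnt genes), Fgf8, Ihh and Jag2. The antagonist genes Nog (3848 bp from a peak), Sfrp1 and Sfrp2 were closed as well. Slit3, an axon guidance gene, was nearest to a peak (1584 bp), and Vegfc, a lymphatic growth factor (153693 bp), and Nrg3 (724238 bp) were farthest. Of 38 genes for G protein-coupled receptors, 21 were closed (55.3%), from Ptger3 (1319 bp) to Fzd10 (131968 bp) and the cannabinoid receptor Cnr1 (188270 bp). They included the dopamine receptor Drd2 (66645 bp), the β1 adrenergic receptor Adrb1 (12939 bp) and the opioid receptor Oprd1, while Frizzled receptors for Wnt were divided, with Fzd6, Fzd9 and Fzd10 closed and Fzd1, Fzd3, Fzd5 and Fzd7 open.

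Genes of excitable cells were also often closed, with intervals that overlapped those of homeobox, SOX and bHLH genes. Of 47 CpG-rich ion channel genes, 38 were closed (80.9%, interval 67.5 to 89.6%). When a peak within 5 kb opened a promoter, this share was 48.9%, below the 56.5% of homeobox and the 58.5% of synapse genes. Among genes of these classes without a CpG-rich start, the closed share was 77.7% for ion channels (157 of 202), 71.8% for synapse genes, 76% for G protein-coupled receptors, which is above the interval of their CpG-rich genes (39.7 to 69.9%), and 68.4% for ligands and antagonists. For the potassium channel genes named Kcn, 19 of 20 were closed, and the open one was Kcnab2, which like the closed Kcnmb4 encodes an auxiliary subunit. Of the calcium channel genes 5 of 7 (open were Cacna2d1 and Cacng2) and of the glutamate receptor channel genes 4 of 5 (open was Grin1) were closed. Kcng3 was the ion channel member nearest to a peak (1125 bp), while Kcnd2 (679014 bp) and the GABA receptor gene Gabra5 (888624 bp) were farthest. Of 41 genes for synapses and neuronal adhesion, 30 were closed (73.2%). They included all 4 neurofilament genes (Nefl, Nefm, Nefh and Ina), the transporters Slc6a4 for serotonin (1026 bp), Slc32a1 for loading GABA into vesicles (13822 bp) and Slc6a11 for GABA uptake (272894 bp), the scaffold genes Shank3, Bsn and Pclo, and Igsf21 (254053 bp). Open genes in this class included Cdh2, which is N-cadherin, and Rbfox2.

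**Figure D2:**
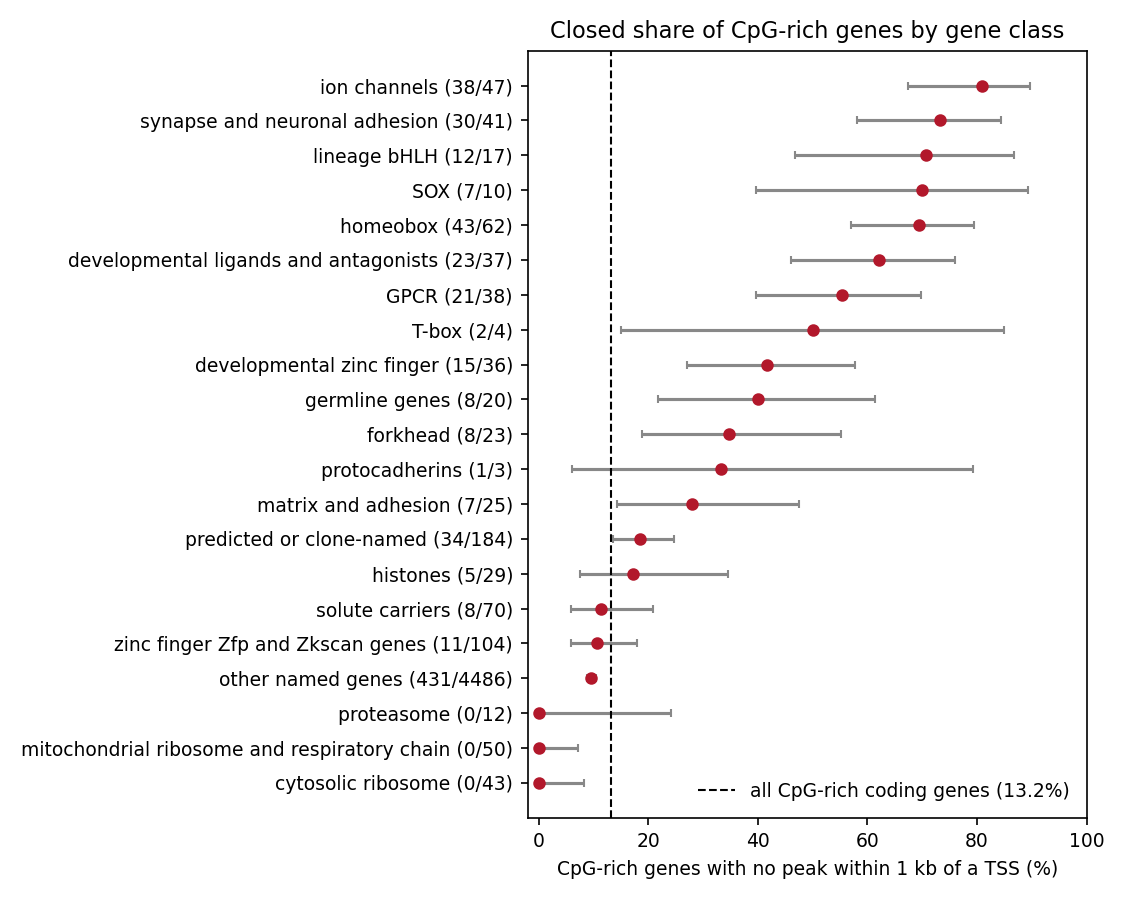
Share of CpG-rich genes of each class that were closed (x axis, %), with Wilson 95% intervals as error bars and closed/CpG-rich gene numbers in parentheses. The dashed line is the 13.2% of all CpG-rich coding genes. Ion channel genes are at 80.9%, and the cytosolic ribosome, mitochondrial and proteasome classes are all at 0.

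The germline class had 8 closed genes of 20 (40.0%). Spata48 (6777 bp) and Zpbp (7091 bp) have neighbouring starts on chromosome 11 and share their nearest peak, which lies inside Zpbp, a sperm protein gene. The others were the meiotic cohesin gene Stag3 (7255 bp), Fkbp6 (7680 bp), Boll (14376 bp), Hsf5 (21072 bp), Slc25a31 (25857 bp) and Meiob (45458 bp), a gene for meiotic recombination. All 8 were within 50 kb of a peak, as were most members of any class, of which only 17.2% lay beyond 50 kb.

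The remaining classes ranged from 0 to 28.0%, apart from the protocadherins with only 3 genes. Solute carrier genes without those counted in other classes were closed in 8 of 70 cases (11.4%), and all CpG-rich genes named Slc, the neurotransmitter transporters and Slc25a31 included, in 15 of 84 (17.9%, interval 11.1 to 27.4%). Members of the class ran from Slc2a3, a glucose transporter of neurons (1980 bp), to the glutamate transporter Slc1a1 (57818 bp) and Slc24a4 (61598 bp). Zinc finger genes named Zfp, Zbtb, Zkscan or Zscan were closed in 11 of 104 cases (10.6%), from Zfp618 (1258 bp) to Zfp518a (54906 bp) and Zfp804a (1216508 bp). Matrix and adhesion genes, which fibroblasts are known for, were closed in 7 of 25 cases (28.0%, interval 14.3 to 47.6%). When a peak within 2 kb opened a promoter, 16% of these genes were closed, and within 5 kb 8% of them were. Their closed starts were close to peaks, with a median of 2575 bp, Col12a1 being nearest (1081 bp) and Col23a1 (9841 bp) and Fbn2 (44780 bp) farthest, and 6 of the 7 had a peak inside the gene, Adamtsl3 as many as 21. None of the 43 cytosolic ribosome, 50 mitochondrial ribosome and respiratory chain and 12 proteasome genes was closed, which allows a share of up to 3.53% over the 105 (upper Wilson bound). Predicted or clone-named genes were closed in 34 of 184 cases (18.5%), the farthest being C530025M09Rik (268437 bp) and 9030624G23Rik (296084 bp) and the nearest 2900026A02Rik (1129 bp), and the 1 closed protocadherin gene of 3 was Pcdh15 (12595 bp). The remaining 431 members carry other names, and with 9.61% of 4486 genes closed, this group was below the share of all CpG-rich genes while still holding most of the members.

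Since closed genes were GC-richer, shares were compared within bands of GC content. In the 6 TF classes, 68.4% of the genes were closed at 55 to 60% GC (13 of 19), 63.9% at 60 to 65%, 57.1% at 65 to 70% and 46.3% at 70% or more (19 of 41), so that the order of the bands was opposite to that over all CpG-rich genes. The intervals of the first and last band overlapped, however (46.0 to 84.6% and 32.1 to 61.3%). For ion channels, receptors, synapse genes and ligands as one set, the shares were 52.9%, 71.4%, 71.7% and 69.0% in the same bands. In every band, both sets of classes were above the share of all CpG-rich genes, which was highest at 21.1%.

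The distance from the closest TSS of a member to the edge of the nearest peak had a median of 11628 bp (quartiles 4421 and 32675 bp). Distances of at most 1 kb are excluded by the rule, so only how far the genes lay beyond it is informative. Of the 704 members, 63 (8.95%) were within 2 kb, 137 (19.5%) at 2 to 5 kb, 129 (18.3%) at 5 to 10 kb, 254 (36.1%) at 10 to 50 kb, 55 (7.81%) at 50 to 100 kb and 66 (9.38%) beyond 100 kb. Closed genes that are not CpG-rich were farther away, with a median of 21209 bp, and 35.6% of them were beyond 50 kb (interval 34.6 to 36.6%), compared with 17.2% of the members (14.6 to 20.2%). Members had more TSSs to measure from (median 3 and 2), and fewer had starts with at least 10% repeated sequence (3.27% and 15.9%). From the gene start, the medians were 16084 bp for members and 18336 bp for the other closed genes. Genes with no peak in the region searched around them are left out of these 2 medians. How much each of these contributes to the difference was not tested. The farthest members were Zfp804a (1216508 bp), Gabra5 (888624 bp), Ccser1 (888166 bp), Arap2 (774502 bp) and Nrg3 (724238 bp). In total 11 members were beyond 500 kb, the others being Sorcs1, Epha5, Kcnd2, Cadm1, Unc5d and Hs3st4.

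**Figure D3:**
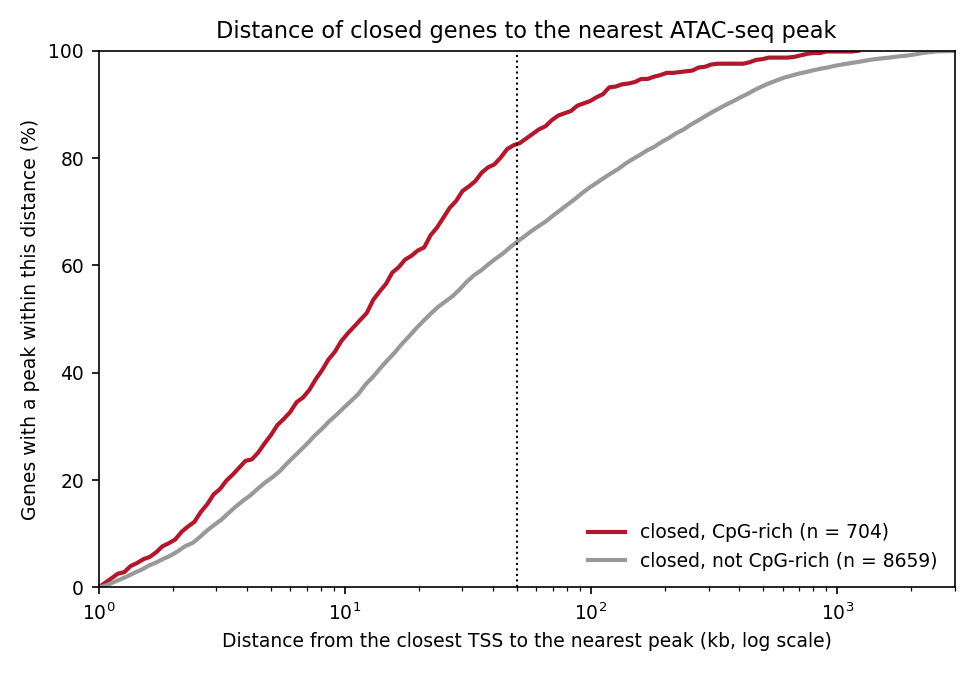
Share of closed genes (y axis, %) with a peak within a given distance of their closest TSS (x axis, kb, log scale), for the 704 CpG-rich and the 8659 other closed genes. The dotted line is at 50 kb. The CpG-rich curve lies above the other one, with medians of 11628 and 21209 bp.

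**Figure D4:**
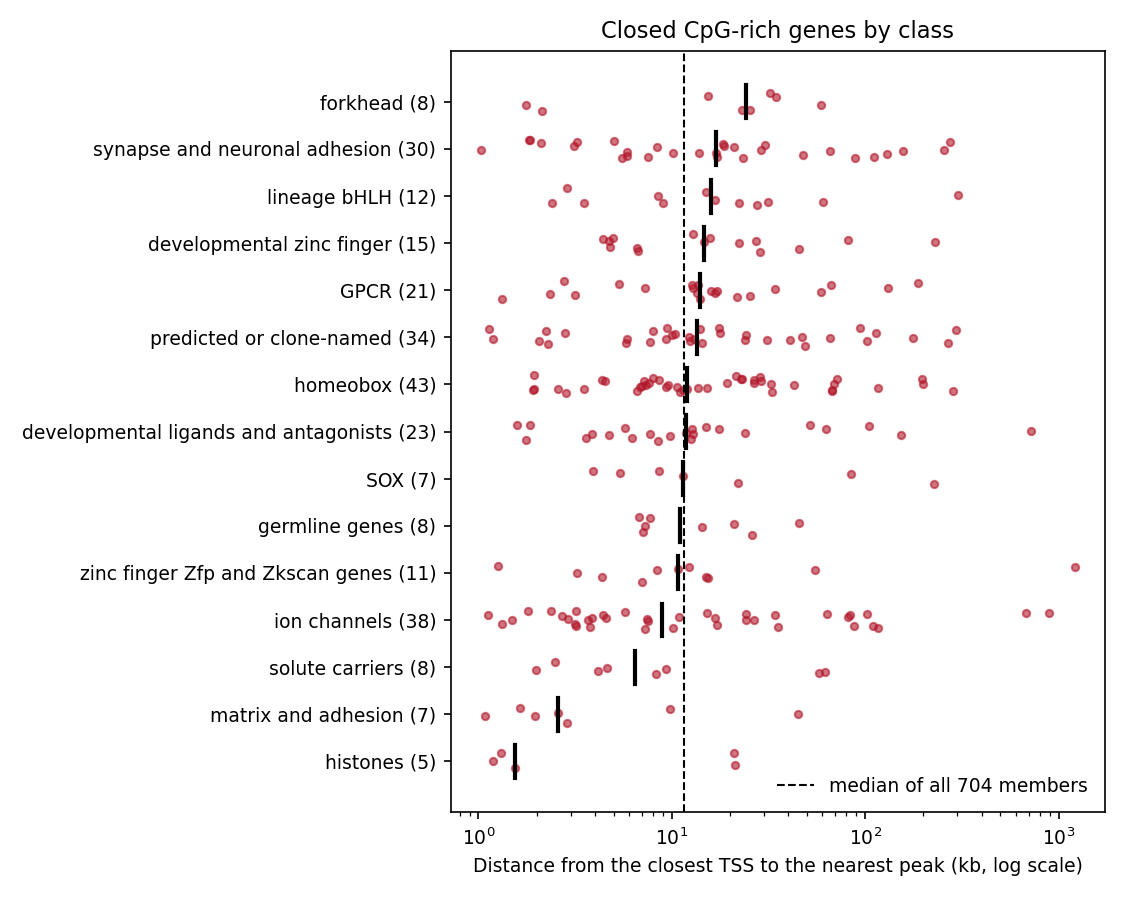
Distance from the closest TSS to the nearest peak (x axis, kb, log scale) for each closed CpG-rich gene of the classes with at least 5 members, 1 point per gene, with the number of members in parentheses. Points are spread vertically only for visibility, thick bars are class medians, and the dashed line is the median of 11628 bp. Matrix and adhesion genes have a median of 2575 bp and forkhead genes one of 24288 bp.

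The peak nearest to a member had a median fold enrichment over the expected pileup of 5.52, a width of 261 bp and a summit of 23 fragments, against medians of 327 bp and 29 fragments over all 63456 peaks. The promoter peaks of the 4637 open CpG-rich genes had medians of 10.2, 925 bp and 69 fragments, but these genes were chosen for having a peak. For 261 members (37.1%) the nearest peak lay between genes, for 217 (30.8%) inside the gene itself, for 127 (18%) at the promoter of another gene and for 99 (14.1%) inside another gene. A peak within 1 kb of a TSS of another gene, coding or not, was counted as a promoter peak first. The 30.8% therefore leaves out such peaks inside the member, as for 2900026A02Rik. Peaks inside the gene itself were the nearest in distance (median 5532 bp), and those at other promoters the highest (median 45 fragments). The peak lay upstream of the closest TSS for 390 members (55.4%). For 296 members (42.0%) the TSS closest to a peak was not the gene start but that of a shorter transcript, as for Chd7, where it was 1027 bp from a peak and the gene start 23290 bp.

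The members' surroundings were compared with those of open CpG-rich genes by counting peaks within 100 kb of the gene start, leaving out peaks within 1 kb of the gene's own TSSs. This measure was not used by the rule. The median was 6 peaks for members (quartiles 2 and 10) and 9 for open CpG-rich genes (6 and 13), and it was 4 and 10 for closed and open genes that are not CpG-rich. No peak within 100 kb was found for 92 members (13.1%) and for 28 open CpG-rich genes (0.604%). Within a class the order held for homeobox genes (5 and 8), developmental zinc finger genes (3 and 12), ion channels (4 and 8) and synapse genes (6 and 10), but G protein-coupled receptor genes had a median of 6 in both states. It was the other way round for T-box genes (10 and 6.5) and histone genes (20 and 16.5). All of these counts come from the same library as the calls.

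Many members had accessible regions inside the gene. Peaks within 1 kb of any TSS of the gene were left out of this count too. For open genes this removes the peaks by which they were called open, so their shares cover only other peaks in the gene. A peak elsewhere in the gene body was found for 312 members (44.3%, interval 40.7 to 48.0%) and for 47.3% of open CpG-rich genes (45.9 to 48.8%). The share depended on gene length. Under 10 kb it was 5.98% in members and 8.22% in open CpG-rich genes, and at 30 to 100 kb 58.8% and 64.3%, with overlapping intervals in both bands. For genes of 10 to 30 kb it was 33.6% in members and 28.6% in open CpG-rich genes, with overlapping intervals, while for genes over 100 kb it was 72.1% in members (145 of 201, 65.6 to 77.9%) and 94.3% in open CpG-rich genes (656 of 696, 92.3 to 95.8%). Members were longer than open CpG-rich genes, with median lengths of 37928 and 30846 bp, and had fewer annotated TSSs (median 3 and 5). A single TSS was annotated for 26.8% of members and 9.21% of open CpG-rich genes, and since every TSS had to lack a peak, genes with few TSSs could be called closed more easily.

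Short sequences bound by TFs of CpG islands were counted in the 500 bp to either side of the gene start, on both strands, as exact letters. No searched sequence contains another. The GC box GGGCGG of SP and KLF factors was equally common in closed (96.6%) and open CpG-rich starts (96.1%), against 61.4% of all coding starts. The ETS sequence CCGGAAG was present in 102 of 704 closed starts (14.5%) and in 34.3% of open ones (19.5% of all coding starts), a difference of -19.8 percentage points (95% interval -22.6 to -16.7). The YY1 sequence AAGATGGCG was present in 1.99% and 8.13% (3.60% of all), NRF1's TGCGCATGC in 1.14% and 5.43% (2.69%), BANP's TCTCGCGA in 1.70% and 5.65% (2.02%), and the cAMP response element TGACGTCA in 1.99% and 5.95% (3.33%). The intervals of all of these differences lay below 0. Among the other sequences, CCAAT of NF-Y was in 54.8% and 60.1% (70.3%), the E2F sequence TTCCCGC in 26.7% and 29.5% (15.5%), the E-box CACGTG in 21.2% and 23.4% (17.3%) and TATAAA in 15.6% and 14.6% (32.2%), and the intervals of the last 3 differences included 0. These are matches of letters and no binding was measured.

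The ETS sequence was less common in closed starts at each GC content, with 23.4% of closed and 43.7% of open starts at 55 to 60% GC, 11.9% and 37.3% at 60 to 65%, 14.2% and 29.5% at 65 to 70%, and 13.1% and 20.1% at 70% or more. In the last band the intervals overlapped (9.03 to 18.6% and 17.3 to 23.2%). For YY1, the shares in the same bands were 2.13% and 8.51%, 2.59% and 8.56%, 1.77% and 7.96%, and 1.57% and 6.87%, with overlapping intervals at 55 to 60% GC. The NRF1, BANP and cAMP response element sequences were less common in closed starts in each band too, but most of these intervals overlapped. They were apart only at 65 to 70% GC for NRF1 (0.885% and 4.48%) and BANP (1.77% and 6.38%), and at 60 to 65% for the cAMP response element (1.04% and 5.49%). Other differences varied with GC content. For CCAAT, the shares were 58.5% and 69.3% at 55 to 60% GC but 63.2% and 63.7%, 56.6% and 57%, and 42.4% and 42.6% in the bands above. TATAAA was in 24.9% of closed (interval 19.3 to 31.4%) and 15.1% of open starts (13.4 to 17%) at 60 to 65% GC, and the intervals overlapped in the other bands. Searched over 1 kb to either side at any GC content, TATAAA was less common in closed (39.1%) than in open starts (47.0%). Of the printed stretches, the open Rplp1 held the ETS letters and none of the 7 closed ones did, while 6 of the 7 closed and neither of the open ones held the GC box.

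The RE1 element of REST, a repressor of neuronal genes outside the nervous system, was searched as its left arm TTCAGCACC and its right arm GGACAGCGC. The right arm was in 38 closed starts (5.40%, interval 3.96 to 7.32%) and in 2.78% of open CpG-rich starts (2.35 to 3.30%), against 1.75% of all coding starts. By GC band the shares were 3.19% and 2.11%, 3.11% and 2.81%, 7.52% and 3.65%, and 6.28% and 2.38%. Closed and open starts were thus close below 65% GC, and the intervals overlapped in every band. The left arm was in 2.13% and 1.66% (1.56%), a difference whose interval included 0. Closed genes with the right arm included the channel gene Kcnj4, the receptor genes Hrh3 and Crhr1, the homeobox genes Pou3f2 and Tlx3 and the presynaptic gene Pclo, but 28 of the 38 were outside the named classes. Closed genes with the left arm included the channel genes Kcnk3, Kcnc1, Grin2a and Kcng3, and also 4 histone genes. These lie in neighbouring pairs (Hist1h2bq with Hist1h2ao, Hist1h2ap with Hist1h2br) whose windows overlap, so 1 match can count for both genes of a pair. Their start regions hold only sequence that is repeated elsewhere in the genome.

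**Figure D5:**
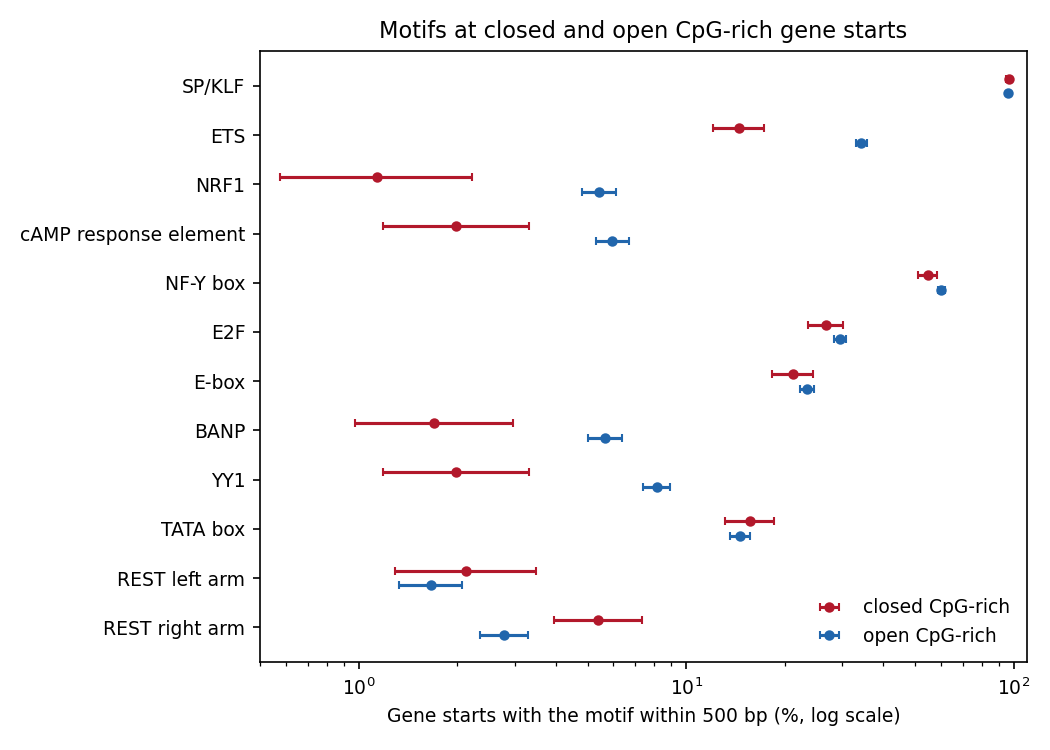
Share of closed and open CpG-rich gene starts (x axis, %, log scale) that hold each searched sequence within 500 bp, with Wilson 95% intervals as error bars. Closed starts are lower for ETS (14.5% and 34.3%), NRF1, cAMP response element, BANP and YY1 sequences, near-equal for SP/KLF, and higher for the right arm of the REST element (5.40% and 2.78%).

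Members were spread over the genome. The closed share of CpG-rich genes ranged from 7.29% on chromosome 8 (24 of 329) to 18.1% on chromosome 6 (45 of 248). When CpG-rich genes were put in order along the chromosomes, 451 members had open neighbours on either side, 208 formed 104 pairs, and the others formed runs of 3 to 5. In all, 108 members (15.3%) had another member within 100 kb. Another coding gene started within 1 kb of 38 members, and in 6 of these cases that gene was itself open, through a peak more than 1 kb from the member's TSSs. The longest run was Fam177a, Srp54b, 1700047I17Rik2, Srp54c and Insm2 on chromosome 12. Runs of 4 were Adcy1, Igfbp3, Spata48 and Zpbp on chromosome 11, Nefl, Nefm, Entpd4 and Entpd4b on chromosome 14, 4 histone genes (Hist1h2bq, Hist1h2ao, Hist1h2ap and Hist1h2br) on chromosome 13, and Gm3417, Gm3435, Tcte3 and Gm3448 on chromosome 17.

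Some of these runs lie in duplicated DNA, where few reads can be placed uniquely. In 23 members (3.27%), at least 10% of the 75-base sequences of the 2-kb region at the gene start occur elsewhere in the genome, and in 15 of them at least 90% do. The share with at least 10% was 1.70% for open CpG-rich genes, and no open CpG-rich gene had 90%. The 15 are Fam177a, Srp54b, 1700047I17Rik2 and Srp54c of the longest run, the 4 histone genes on chromosome 13, Entpd4 and Entpd4b, BC107364, and the 4 genes of the run on chromosome 17. All 5 closed histone genes (of 29) were among the 23, the fifth being Hist2h3c1. Only 3 of the 29 CpG-rich histone genes fell below 10%, so most of the 24 open histone genes had repeated starts too. For the 10 members with only repeated 75-base sequences, the lack of a peak cannot be told apart from the lack of mappable reads. The other 13 of the 23, with shares from 12.2 to 97.3%, have some sequence where reads can map, and the part of repeats in their lack of a peak was not tested.

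The genome of the cell line bears on the members too. Cdkn2a, which encodes the cell cycle inhibitor p16 and the p53 activator p19Arf and is known to be deleted in NIH-3T3 cells, was a member (chromosome 4, position 89294653, GC 67%, ratio 0.981). Its nearest peak was 46811 bp away, in a stretch without peaks from 89235381 to 89393469 (158088 bp). Cdkn2b in the same stretch, with a ratio of 0.745 just below the threshold, was 75658 bp from a peak, while Mtap beside it was open. By length, that stretch ranked 141 among the gaps between the 3768 peaks of chromosome 4. DNA that is lost and chromatin that is closed cannot be told apart in a list of peaks.

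Among the 13 TFs whose overexpression the series examined by ATAC-seq, the genes Dlx6 (21352 bp from a peak) and Sox2 (84738 bp) were members. Hlf, a PAR bZIP factor, was CpG-rich and open, with a peak at a TSS. The genes of the other TFs on chromosomes 1 to 19 were not CpG-rich by the rule, and Rhox11 lies on the X chromosome. The 2 members are therefore TF genes whose own CpG-rich starts carried no peak in the parental cells, and Sox2 had 1 peak within 100 kb of its start.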

How the data were processed

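Accessible regions were measured by ATAC-seq in 1 library of parental NIH-3T3 cells. The other 30 samples were not analysed here, and samples were not compared. Per the methods and the submitters' processing notes, 75-base paired reads were aligned to mm10 with STAR 2.5.3a, only uniquely mapped reads of chromosomes 1 to 19, X and Y entered, duplicates were removed with Picard, and peaks were called with MACS2 2.1.1.20160309 in its paired-end mode. SAMtools and deepTools are also named, without version.

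The authors deposited, for each peak, its interval, a score (made from the −log10 q), the fold enrichment (ratio of the summit pileup to the expected pileup, each with 1 added), the −log10 p-value and the −log10 q-value. The lowest deposited −log10 q is 1.30. For ChIP-seq, removal of peaks found in input or in blacklisted regions is described. The methods refer to the ChIP-seq description for calling the ATAC-seq peaks of the parental line. They do not name this removal for ATAC-seq, so whether it was made is not known, and no such filter was applied here. The deposited score was not used. Fold enrichment and −log10 q were used to describe and filter peaks, and the number of fragments at each summit was solved from the fold and the −log10 p (99.997% of 63456 came out within 0.02 of a whole number). This gives the depth at summits, not the number of reads.

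Positions are those of mm10, counted from 1, with GENCODE M21 transcripts. GC content and the CpG observed/expected ratio were computed over the gene start and the 500 bp to either side. Distances run from a TSS to the nearest edge of a peak. Repeated sequence is the share of 75-base words of a region that occur elsewhere on chromosomes 1 to 19, X and Y on either strand. Gene classes (20 by symbol, the first that matches, and the rest) and 12 short sequences were counted with Wilson 95% intervals, which cover counting error only. There is no test between samples and no p-value. The solving of pileups and the search for repeats were tested on simulated data. Calculations were made in Python 3.11.15 with numba 0.67.0, NumPy 2.4.6, SciPy 1.17.1, pandas 2.3.3 and matplotlib 3.10.9.

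The members, gene classes and sequences were chosen with earlier results of these data known. Genes were named by rule: overall the 5 members nearest to and the 5 farthest from a peak, in each class with at least 5 members the nearest and the 2 farthest, all T-box and germline members, the members of the longest runs, 3 genes at either side of each threshold, the genes of the overexpressed TFs, and those whose sequences are printed. Further genes and the gene families within classes were picked as examples with their values known. Chromosome 18 was left out of the printed sequences, and the sequence of 1 further class is not reported here. Alternatives covered the distance, the TSSs, the peak threshold, the composition, the genes kept and the windows.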

Additional observations from a re-analysis of the deposited data

How the results depend on the processing

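No paired analysis was possible because the data are 1 library and no result comes from a test. Of 410 alternative values, 357 stayed within the counting interval of the value reported (or, for counts, within 1.5 times of it) and 53 moved beyond it. These intervals are narrow for shares over many genes, so small shifts count as moved, and their cause was not tested beyond what each setting changes by construction.

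With a CpG observed/expected ratio of at least 0.6 the number of closed CpG-rich genes was 1440 in place of 704, and with at least 0.9 it was 176. The closed share of 13.2% became 12.0% with peaks within 2 kb and 9.44% within 5 kb, 15.2% with the gene start as the only TSS, 14.3% with TSSs of coding transcripts, 14.9% with basic transcripts, 14.2% with peaks of q at most 1e-05, 17.6% with a fold enrichment of at least 5, 15% with GC of at least 60%, and 17.5% and 10.1% with the ratio at 0.6 and 0.9. The median distance of 11628 bp became 13672 bp within 2 kb, 21297 bp within 5 kb, 15605 bp for the gene start, 13672 bp for coding and 14306 bp for basic transcripts, 13471 bp at q of 1e-05, 15088 bp at a fold of 5 and 14491 bp at a ratio of 0.9.

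With peaks within 5 kb, the closed share was 56.5% for homeobox genes, 45.4% for the 6 TF classes, 45.9% for ligands and antagonists, 48.9% for ion channels, 5.71% for solute carriers, 8% for matrix and adhesion genes, 6.90% for histones (also within 2 kb) and 6.71% for other named genes (8.76% within 2 kb). With a ratio of at least 0.9 it was 0% for forkhead (of 8 genes) and for matrix and adhesion genes (of 3), 40.0% for ligands and antagonists (of 10), 20% for germline genes (of 5), 4.55% for solute carriers (of 22) and 7.06% for other named genes (of 1473). Other named genes were at 10.6% with q of 1e-05, 13.8% with a fold of 5, 11.1% with GC of 60% and 13% with a ratio of 0.6. Predicted genes were at 28.5% with a ratio of 0.6, and protocadherins at 100% with GC of 60%, where only 1 gene was left. Without repeated windows only 3 histone genes were left, and 0% of these were closed (interval 0 to 56.1%).

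Members with a peak inside the gene were 33.7% within 5 kb and 35.7% at a fold of 5, and members beyond 50 kb of a peak were 24% and 21.1%. Searched from 250 bp before to 50 bp after the start, the difference between closed and open starts was -14.0 percentage points for ETS, -3.25 for YY1 and 0.786 for the right arm of the REST element. Over 1 kb to either side, that for TATAAA was -7.93 where it had been 1.05. The ratio of median peak numbers around closed and open CpG-rich genes, 0.667 within 100 kb, was 0.5 within 50 kb and 0.773 within 250 kb.

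The depth of 1 library limits what can be called closed: summits below about 10 fragments are not in the list.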

Other observations

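Imprinted genes, of which only the copy from 1 parent is used, were looked at as a list of 31 textbook names put together after the data had been seen. On chromosomes 1 to 19, 8 of them were CpG-rich by the rule, and 5 of these were closed, beside 13.2% of all CpG-rich genes. They were Nnat (5092 bp from a peak, at the promoter of Blcap), Zdbf2 (33038 bp), Dio3 (71216 bp), the cell cycle inhibitor gene Cdkn1c (87506 bp) and the retrotransposon-derived Peg10 (145410 bp). Peg12, Ube3a and Igf2r were CpG-rich and had a peak within 1 kb of a TSS. Among the listed genes that are not CpG-rich, the share without a peak within 1 kb was near the 56.0% of all such coding genes. Gnas, Peg3 and Grb10 were among those with a peak. The number is too small for a comparison with other genes, and the peak list does not tell the parental copies apart.

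Some members are genes often named in work on fibroblasts, singled out here after their values were seen. They come from no fixed list and say nothing about fibroblast genes as a group. All 10 fibroblast markers examined had a peak within 1 kb of a TSS. Igfbp3, which encodes a secreted binding protein of insulin-like growth factors, had its nearest peak 23925 bp away with 12 fragments. Cxcl12, a chemokine gene, had a peak of 20 fragments inside the gene at 5424 bp from its closest TSS. Epas1, the hypoxia-inducible factor 2α gene, had 6 peaks inside the gene, the nearest 7567 bp from a TSS. Cebpa, a regulator of fat cell formation, was 7760 bp from a peak of 48 fragments between genes.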
